A study of Homo sapiens with 6 samples.

Results

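The TAL1 core regulatory circuit of T cell acute lymphoblastic leukaemia (T-ALL) was followed in Jurkat cells that overexpress SCML4. Its 10 genes are TAL1, LYL1, TCF3, TCF12, LMO1, LMO2, LDB1, GATA3, RUNX1 and MYB. They were chosen by name as the published core of the TAL1 complex, with earlier results of these data known, and make up 10 of the 39012 genes in the deposited table. TAL1 lies on chromosome 1, MYB on 6, LDB1 and GATA3 on 10, LMO1 and LMO2 on 11, TCF12 on 15, LYL1 and TCF3 on 19, and RUNX1 on 21 (GENCODE 29). Jurkat is a human T-ALL line, and SCML4 is a protein of the Polycomb group. RNA-seq was made from 3 SCML4 libraries, from cells with stable SCML4 overexpression, and 3 EV libraries, from the control cells that the labels call EV. The cells of all 6 libraries, controls included, were stimulated with 100 ng/ml PMA plus 1 μM ionomycin, drugs that mimic T cell receptor signalling, for 6 h. No unstimulated culture was analysed here, so the values describe the circuit in stimulated cells only. The labels do not tie the 3 libraries to separate cultures or separately derived lines. P-values therefore measure only how these libraries scatter, which may be technical scatter.

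TAL1 is a class II basic helix-loop-helix (bHLH) transcription factor that is silent in normal maturing T cells and is switched on in a large share of T-ALL. It binds E-box DNA as a heterodimer with an E protein, such as the products of TCF3 and TCF12. LMO1 or LMO2 and LDB1 bridge this dimer to GATA3 and RUNX1, and together with MYB these factors occupy each other's enhancers in a self-sustaining loop. Jurkat cells carry a small insertion upstream of TAL1 that creates MYB sites and turns the region into a strong enhancer.

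The DNA letters that this complex reads were looked up before the start sites of genes on which the results turn. RefSeq windows of the 250 bases before each annotated start (build GRCh38.p14, written 5′ to 3′ on the gene's own strand) were available for 9 of the 10 genes, LMO2 being the exception. Capitals mark an E-box (CANNTG), a GATA motif (GATAA) or a RUNX motif (TGTGGT), on either strand. TAL1 and LMO1 are shown as founders of the complex, LYL1 and LMO1 as the members with the largest differences, and ALDH1A2 as a TAL1-activated gene described further on. Each window lies on the minus strand, at chr1:47232336-47232585 for TAL1, chr19:13102859-13103108 for LYL1, chr11:8268788-8269037 for LMO1 and chr15:58065712-58065961 for ALDH1A2.
TAL1: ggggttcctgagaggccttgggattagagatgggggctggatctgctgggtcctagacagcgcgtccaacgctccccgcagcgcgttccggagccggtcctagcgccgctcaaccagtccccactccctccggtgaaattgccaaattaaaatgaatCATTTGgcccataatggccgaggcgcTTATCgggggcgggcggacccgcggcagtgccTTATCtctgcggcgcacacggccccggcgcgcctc
LYL1: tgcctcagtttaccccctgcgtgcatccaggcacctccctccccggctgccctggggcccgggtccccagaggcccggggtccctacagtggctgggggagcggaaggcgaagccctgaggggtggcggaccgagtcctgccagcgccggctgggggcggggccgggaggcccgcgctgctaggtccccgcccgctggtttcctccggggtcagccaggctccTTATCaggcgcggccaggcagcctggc
LMO1: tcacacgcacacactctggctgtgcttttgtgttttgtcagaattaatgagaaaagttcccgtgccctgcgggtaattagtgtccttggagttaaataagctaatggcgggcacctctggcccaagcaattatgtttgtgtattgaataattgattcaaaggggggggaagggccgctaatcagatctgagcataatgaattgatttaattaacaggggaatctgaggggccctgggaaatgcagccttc
ALDH1A2: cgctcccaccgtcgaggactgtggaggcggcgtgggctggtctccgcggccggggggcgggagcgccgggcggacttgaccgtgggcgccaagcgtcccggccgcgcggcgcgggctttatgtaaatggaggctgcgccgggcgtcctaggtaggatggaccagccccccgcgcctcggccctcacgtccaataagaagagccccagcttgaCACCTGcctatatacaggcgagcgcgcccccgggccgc
The TAL1 window held the E-box CATTTG 93 bases before the start and a pair of GATA matches, read as TTATC on this strand, 67 and 35 bases before it. LYL1 had 1 GATA match 27 bases before its start and no E-box. LMO1 held none of these 3 motifs. In the ALDH1A2 window shown, that of the first start, the only match was the E-box CACCTG 38 bases before the start. Over the first-start windows of the 9 genes, 2 had an E-box, 2 a GATA motif and 0 a RUNX motif, and 5 had a MYB motif (AACNG, not capitalised). Of all 35116 RefSeq windows of 250 bases, 61.8% held CANNTG, 20.4% GATAA and 70.6% AACNG, and 3855 windows held TGTGGT. The window of TAL1's second annotated start, not shown, held 3 TGTGGT matches. That of ALDH1A2's second annotated start, also not shown, held 2 E-boxes (CAGGTG and CATATG), 1 GATA match and 3 MYB matches. A match describes these letters only, and enhancers lie outside the windows.

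The deposited values are FPKM, reads scaled by a gene length and by the library's reads. Each is a whole multiple of what 1 read is worth. With the implied gene lengths taken as whole numbers, this gave back the reads: 9064152, 10336597 and 8953671 in SCML4 libraries 1 to 3, and 9631850, 8968067 and 9680394 in EV libraries 1 to 3. Levels are given as CPM, reads scaled to a library total of 1000000, and differences as log2(FPKM + 1), SCML4 minus EV, from limma-trend with Benjamini-Hochberg adjustment over the 15357 genes that averaged 0.5 FPKM or more. SCML4 itself had 570, 657 and 506 reads in SCML4 libraries, against 7, 2 and 1 in EV libraries. Its log2 difference was 1.88 by limma-trend, with an adjusted p of 0.0619, and 7.56 by limma-voom on the reads, with an adjusted p of 1.46e-06. The test on FPKM thus did not call even the overexpressed gene, and a count of 0 calls from it is to be read beside that. One library stood apart. EV replicate 1 was the highest or the lowest of the 6 libraries in 60.1% of the 11407 genes that averaged 50 reads or more, against 20.8% to 36.5% for each other library. T cell markers were present: all 10 listed had over 100 CPM on average, while the 6 myeloid markers and 5 of 6 B cell markers averaged under 1 CPM. CD79A was the B cell exception, with 31.5 ± 1.18 CPM in SCML4 cells and 26.0 ± 6.43 CPM in EV cells (SD, n = 3 each).

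No gene of the circuit passed the test between SCML4 cells and EV cells. Summed over the 10 genes, SCML4 libraries had 2783.1, 2897.5 and 2936.7 CPM, against 2968.9, 2730 and 2663.9 CPM in EV libraries, and the groups overlapped. Of the 9 genes that could be tested, 8 had a positive and 1 a negative difference, where 51.7% of all genes tested had a positive one. The median of the 9 was 0.08 on the log2 scale, against 0.0058 over all genes tested. The direction of LDB1, GATA3, RUNX1 and MYB turned in at least 1 alternative fit each. With limma-trend 0 of the 9 passed an adjusted p of 0.05, where 0.0% of all genes did. LYL1 and LMO1 had an unadjusted p under 0.05, a mark reached by 5.09% of all genes. By limma-voom on the recovered reads 0 members passed the adjusted threshold as well, where 0.00706% of all genes did without library weights and 0.0989% with them. In 1 of the 9, LYL1, every SCML4 library lay above every EV library, as in 6.02% of all genes tested.

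**Figure D1:**
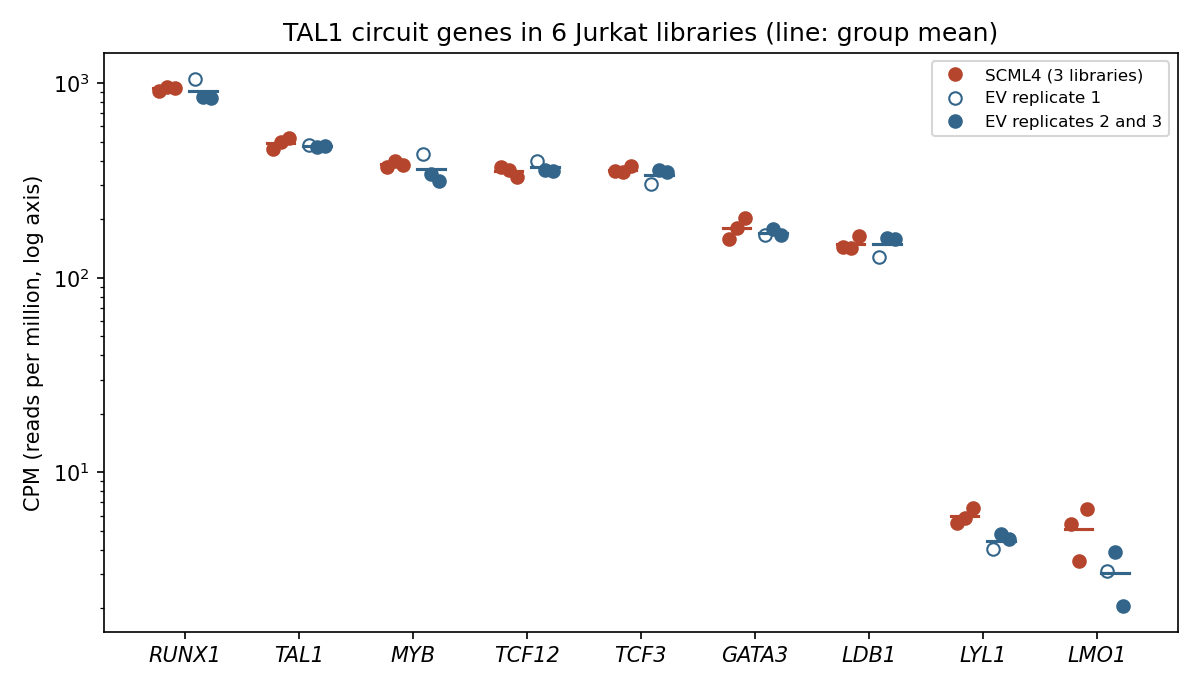
CPM (log axis) of 9 circuit genes in each of 6 Jurkat libraries, ordered by mean level, with SCML4 libraries left of EV libraries and the group mean as a line. The groups overlap in every gene shown but LYL1, and EV replicate 1 (open circle) is the highest library in RUNX1, MYB and TCF12; LMO2, with 1 read in all, is not drawn.

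TAL1 and LYL1 are the class II bHLH proteins, close relatives that can each pair with an E protein. TAL1 had 4186, 5179 and 4665 reads in SCML4 libraries and 4660, 4227 and 4591 in EV libraries. On the CPM scale these were 461.82, 501.04 and 521.02 in SCML4 cells, against 483.81, 471.34 and 474.26 in EV cells. Both the highest and the lowest value belonged to SCML4 libraries, so the groups overlapped. The log2 difference was 0.05, with a 95% interval of -0.10 to 0.20 (limma, adjusted p = 0.939). The means were 495 ± 30.1 CPM in SCML4 cells and 476 ± 6.52 CPM in EV cells (SD, n = 3 each), so their distance was smaller than the spread of the SCML4 libraries. An antisense gene, AL135960.1, shares 845 exonic bases with TAL1 and was not analysed here. Whether counting used the strand is not given in the sources used here, so reads of the antisense gene cannot be told apart from those of TAL1.

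LYL1 was a thinly read gene beside TAL1, with 50, 60 and 59 reads in SCML4 libraries, against 39, 43 and 44 in EV libraries. These gave 5.52, 5.80 and 6.59 CPM in SCML4 cells and 4.05, 4.79 and 4.55 CPM in EV cells. Every SCML4 library was above every EV library. The log2 difference was 0.33, interval 0.06 to 0.59, with an unadjusted p of 0.0239 and an adjusted p of 0.905 by limma. An exact two-sided permutation test of the CPM gave p = 0.1, the smallest that 3 against 3 libraries allow. In the fit of reads by limma-voom without EV replicate 1 the difference was 0.35 with an interval of -0.17 to 0.87, so at this depth the excess of LYL1 was not separated from the spread. Per kilobase of exon, TAL1 exceeded LYL1 by 45.8, 47.2 and 43.3 times in SCML4 libraries, against 65.4, 53.8 and 57.1 times in EV libraries. The size of this ratio depends on the length used. Per kilobase of the median coding transcript, mean levels in SCML4 cells were 103 CPM for TAL1 and 4.99 for LYL1, and in EV cells 98.8 and 3.73. Among the 6 ratios between members that were computed, that of TAL1 to LYL1 and that of LDB1 to LMO1 did not overlap between the groups and the other 4 did. The share of non-overlapping ratios among other gene pairs was not computed.

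TCF3 and TCF12 encode the E proteins, the obligate dimer partners of TAL1. TCF3 had 352.27, 351.86 and 373.92 CPM in SCML4 cells and 305.34, 359.16 and 348.33 CPM in EV cells. EV replicate 1 was the lowest library and the groups overlapped, with a log2 difference of 0.09, interval -0.11 to 0.29 (limma, adjusted p = 0.925). TCF12 was the 1 member with a negative difference, with 369.92, 358.63 and 330.48 CPM in SCML4 cells and 398.37, 357.49 and 355.15 CPM in EV cells. Here EV replicate 1 was the highest library, and the difference was -0.07, interval -0.27 to 0.13 (limma, adjusted p = 0.941). Without EV replicate 1, limma-voom gave 0.02 for TCF3 and -0.01 for TCF12, on either side of no difference. The ratio of TCF3 reads to TCF12 reads was 0.952, 0.981 and 1.13 in SCML4 libraries, against 0.766, 1.00 and 0.981 in EV libraries. The lowest ratio was that of EV replicate 1, and the other 5 libraries held the pair at near-equal reads.

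The LIM-only proteins LMO1 and LMO2 carry the complex without touching DNA, and LDB1 binds them and dimerises. LMO1 had 49, 36 and 58 reads in SCML4 libraries, against 30, 35 and 20 in EV libraries. In CPM this was 5.41, 3.48 and 6.48 in SCML4 cells and 3.11, 3.90 and 2.07 in EV cells. SCML4 replicate 2 lay below EV replicate 2, so the groups overlapped. Its log2 difference of 0.60 was the largest among the members, with an interval of 0.0038 to 1.20, an unadjusted p of 0.0489 and an adjusted p of 0.905 by limma. The exact two-sided permutation test gave p = 0.2. With 20 to 58 reads per library the gene is thinly measured. LMO2, the partner that can take the place of LMO1, was met by 1 read, in SCML4 replicate 1, and by 0 elsewhere. That lies below the floor of 3 reads, which corresponds to 0.290 to 0.335 CPM by library, so LMO2 was not detectable at this depth and entered no test.

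LDB1 had 143.53, 141.83 and 164.29 CPM in SCML4 cells and 127.91, 160.68 and 157.64 CPM in EV cells. The ranges overlapped almost wholly, and the log2 difference was 0.02, interval -0.25 to 0.28 (limma, adjusted p = 0.991). Without EV replicate 1, the lowest library, it was -0.09 by limma-voom, interval -0.25 to 0.06. Reads of LDB1 outnumbered those of LMO1 by 26.6, 40.7 and 25.4 times in SCML4 libraries, against 41.1, 41.2 and 76.3 times in EV libraries. All 3 SCML4 ratios were below the EV ratios, SCML4 replicate 2 narrowly. The ratio of TAL1 reads to LMO1 reads overlapped, at 85.4, 144 and 80.4 in SCML4 libraries, against 155, 121 and 230 in EV libraries.

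GATA3, RUNX1 and MYB are the other DNA-binding partners, and each also serves normal thymocytes, GATA3 in CD4 lineage choice, RUNX1 with its partner CBFB in silencing CD4, and MYB in thymocyte survival. GATA3 had 158.43, 180.91 and 204.16 CPM in SCML4 cells and 166.01, 179.19 and 165.80 CPM in EV cells. SCML4 libraries held both its lowest and its highest value, and the log2 difference was 0.08, interval -0.16 to 0.33 (limma, adjusted p = 0.941). RUNX1, the member with the most reads, had 914.15, 956.31 and 950.22 CPM in SCML4 cells and 1047.9, 853.14 and 841.39 CPM in EV cells. MYB had 371.90, 397.62 and 379.51 CPM in SCML4 cells and 432.42, 340.32 and 314.76 CPM in EV cells. In both genes the SCML4 libraries lay between EV replicate 1, which was highest, and the other 2 EV libraries, which were lowest. With all 6 libraries the log2 difference was 0.05 for RUNX1 and 0.09 for MYB (limma, adjusted p of 0.961 and 0.941). Without EV replicate 1, limma-voom gave 0.15 for RUNX1, interval 0.04 to 0.27, and 0.23 for MYB, interval 0.10 to 0.36. These 2 and LMO1 had an unadjusted p under 0.05 in that fit, as 6.63% of all genes did. The adjusted p of RUNX1 was 0.612 and that of MYB 0.337 by limma-voom, and 0 members passed, where 0.092% of all genes did. The antisense gene MYB-AS1, which overlaps MYB by 103 exonic bases, had only 17 to 40 reads per library.

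**Figure D2:**
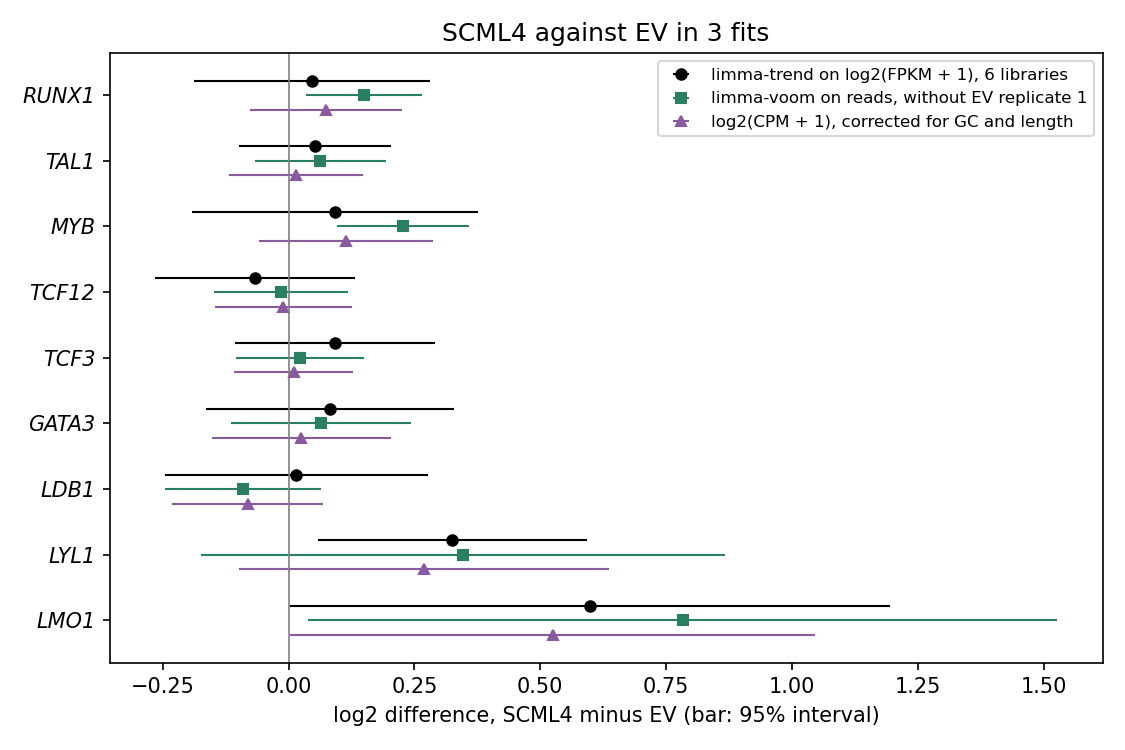
Log2 difference (SCML4 minus EV) of 9 circuit genes with its 95% interval, in the test of all 6 libraries, in limma-voom on reads without EV replicate 1, and in limma-trend with each library corrected for base composition and length. Most intervals cross 0. Those of LMO1, which has few reads and the widest intervals, lie above 0 in each fit, with lower ends close to 0. That of LYL1 lies above 0 only in the test of all 6 libraries. Those of RUNX1 and MYB do so only in the fit without EV replicate 1. No gene shown passed the adjusted threshold in any of these fits.

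EV replicate 1 departed from its group in an order that followed base composition among the members. It was the highest library in the 3 members with the lowest GC content, TCF12 (40.8%), MYB (43.9%) and RUNX1 (47.1%). In TAL1, GATA3 and LMO1, at 53.2% to 54.5%, it was neither highest nor lowest. It was the lowest library in the 3 members with the highest GC content, LYL1 (57.4%), LDB1 (59.7%) and TCF3 (61.2%). On the log2(CPM + 1) scale its departure from the mean of the other 2 EV libraries spanned 0.40 in MYB to -0.31 in LDB1. The same held across the genome: EV replicate 1 was highest in 58.8% of the third of genes with the lowest GC content and in 5.67% of the third with the highest. The part of GC content in the members' differences was not tested beyond a correction for it. After that correction, the differences were 0.01 for TAL1, 0.07 for RUNX1, 0.11 for MYB, 0.27 for LYL1 and 0.52 for LMO1, and 0 members passed the adjusted threshold of limma, where 0.0225% of all genes did. With EV replicate 1 left out, 3 members, LYL1, RUNX1 and MYB, had all SCML4 libraries above both remaining EV libraries, against 11.6% of all genes tested. For LYL1 this follows from its separation in all 6 libraries.

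**Figure D3:**
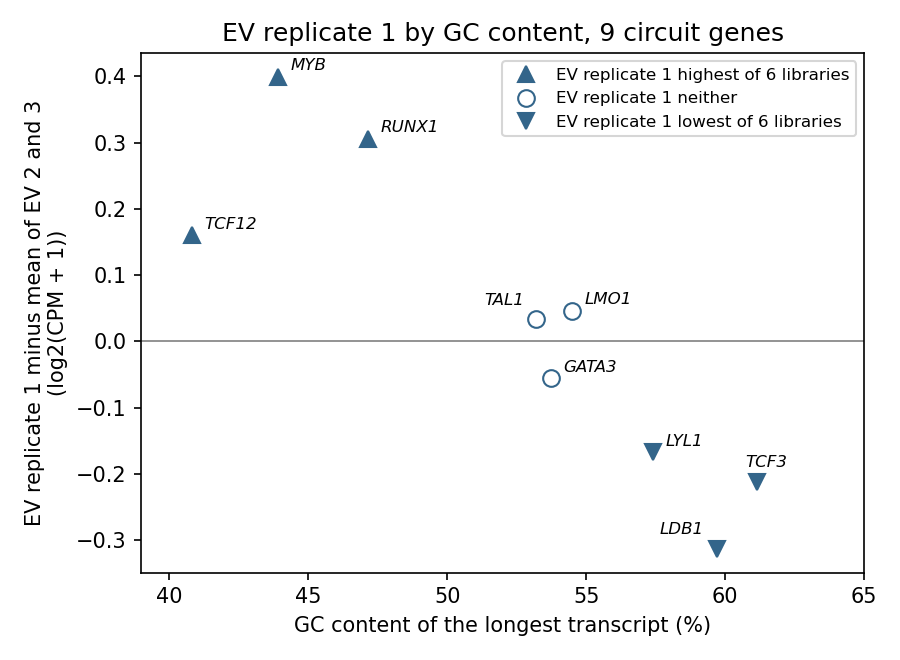
Departure of EV replicate 1 from the mean of EV replicates 2 and 3, in log2(CPM + 1), against the GC content of the longest transcript (%) for 9 circuit genes. The 3 genes under 48% GC sit above 0 and the 3 above 57% GC sit below 0.

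Levels were compared between members per kilobase of exon, since FPKM did not serve here: the lengths implied by the deposited values had a Spearman correlation of -0.029 with exonic lengths over 21754 genes. TAL1 came first, at 86.8 ± 5.28 CPM per kb in SCML4 cells and 83.6 ± 1.14 in EV cells. MYB followed at 69.7 ± 2.40 in SCML4 cells and 66.0 ± 11.3 in EV cells, and RUNX1 at 60.4 ± 1.46 in SCML4 cells and 58.7 ± 7.45 in EV cells (SD, n = 3 each). TAL1 lay above MYB in every library of both groups. From MYB down through RUNX1, TCF3, LDB1 and GATA3, the EV libraries of neighbours overlapped. In SCML4 libraries only MYB was clear of RUNX1, and the next 4 overlapped their neighbours. TCF12 followed GATA3, at 37.4 ± 2.15 CPM per kb in SCML4 cells and 39.2 ± 2.57 in EV cells, below every library of GATA3. A wide step separated LMO1, at 3.03 ± 0.898 in SCML4 cells and 1.79 ± 0.545 in EV cells, and LYL1, at 1.91 ± 0.178 in SCML4 cells and 1.43 ± 0.122 in EV cells. The order of the upper 7 depends on the length used: per kilobase of the median coding transcript RUNX1 was first and 4 members came before TAL1. LMO1, LYL1 and LMO2 were the last 3 with both lengths.

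**Figure D4:**
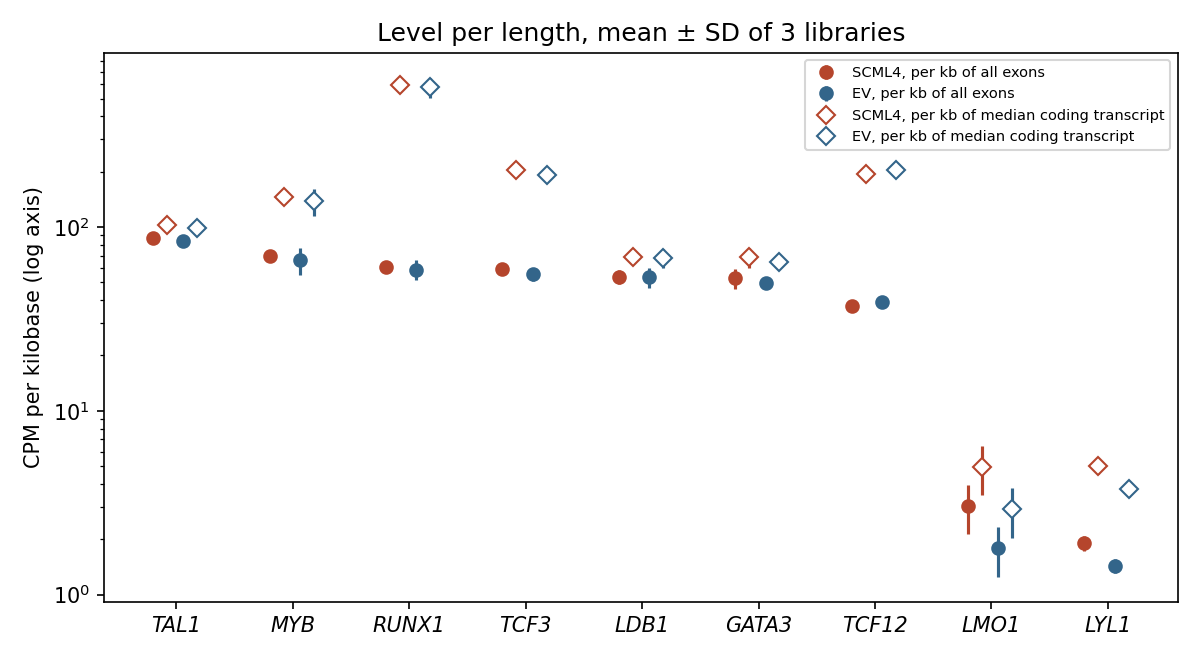
CPM per kilobase (log axis) of 9 circuit genes, mean ± SD of 3 libraries, SCML4 left of EV, with all exons (filled circles) or the median coding transcript (open diamonds) as the length. LMO1 and LYL1 have means under 6 CPM per kb in both groups and with both lengths, and the other 7 lie above 30; LMO2, with 1 read, is not drawn.

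Close relatives of the members were present in part. Of 17 paralogues, 3 had no reads in any library and 9 in all averaged under 1 CPM, among them TAL2, GATA1 and LDB2. GATA2, a GATA factor of blood stem cells, had 10.3 ± 0.546 CPM in SCML4 cells and 7.70 ± 1.09 CPM in EV cells (SD, n = 3 each). Its groups did not overlap, and SCML4 libraries were higher in this way in 6.02% of all genes tested. Its log2 difference was 0.42 (limma, unadjusted p = 0.00958, adjusted p = 0.905), and 5.09% of all genes had an unadjusted p under 0.05. EV replicate 1 was the lowest library of GATA2. Without that library limma-voom gave 0.32, interval -0.08 to 0.72, and after the GC correction the difference was 0.31. MYBL2, the cell cycle relative of MYB, had 267 ± 5.60 CPM in SCML4 cells and 224 ± 36.6 CPM in EV cells, also without overlap. EV replicate 1 was its lowest library, and without it the EV mean was 244 CPM and the log2 difference 0.13, against 0.27 with all 6 libraries. The RUNX genes RUNX2 and RUNX3 were transcribed beside RUNX1, RUNX2 at 71.0 ± 0.942 CPM in SCML4 cells and 73.2 ± 5.30 CPM in EV cells. The LIM-only gene LMO4, at 48.1 ± 3.87 CPM in SCML4 cells and 44.7 ± 2.05 CPM in EV cells, was far better covered than LMO1 or LMO2. Among the 8 paralogues tested, 4 differences were positive and 4 negative, with a median of 0.02, and 0 passed the adjusted threshold.

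ID proteins sequester E proteins without binding DNA, and thus act on the same dimer. ID3 had the most reads of the 4, with 69.2 ± 6.74 CPM in SCML4 cells and 61.3 ± 21.1 CPM in EV cells (SD, n = 3 each). ID1 had 12.2 ± 2.81 CPM in SCML4 cells and 11.1 ± 2.87 CPM in EV cells. ID2, at 3.65 ± 0.457 CPM in SCML4 cells and 2.65 ± 0.393 CPM in EV cells, was the 1 of 3 tested whose groups did not overlap, where 6.02% of all genes had SCML4 higher in this way. ID4 had no reads. All 3 tested had positive differences, of 0.23 for ID3, 0.14 for ID1 and 0.31 for ID2, and 0 passed the adjusted threshold of limma. Without EV replicate 1 the differences of ID3 and ID1 were -0.04 and -0.06 by limma-voom.

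The cofactors that the complex recruits were nearly all present. Of 17 listed, RUNX1T1 alone had no reads and the other 16 were tested, 7 with positive and 9 with negative differences and a median of -0.05. Summed, they had 2325 to 2379 CPM in SCML4 libraries, against 2388 to 2473 CPM in EV libraries, and these ranges did not overlap. How often sums of other gene sets do not overlap was not computed. CBFB, the non-DNA-binding partner of RUNX1, had 245 ± 10.4 CPM in SCML4 cells and 266 ± 10.1 CPM in EV cells (SD, n = 3 each), with a log2 difference of -0.12. For the acetyltransferase gene KAT2B and the deacetylase gene HDAC2, every SCML4 library was below every EV library, with differences of -0.16 and -0.07. SCML4 libraries were lower without overlap in 5.27% of all genes tested, and 0 cofactors passed the adjusted threshold of limma. The corepressor subunit gene HDAC1 had 251 ± 12.9 CPM in SCML4 cells and 247 ± 5.07 CPM in EV cells. RLIM, whose ubiquitin ligase product degrades LDB1 cofactors, had 298 ± 4.18 CPM in SCML4 cells and 313 ± 25.2 CPM in EV cells. EV replicate 1 was the highest library in CBFB, KAT2B, HDAC2 and RLIM, and neither highest nor lowest in HDAC1. After the GC correction the difference of HDAC2 was 0.02 and that of KAT2B -0.15.

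Genes that TAL1 is known to activate in T-ALL were followed beside the circuit. Of 16 listed, 12 were above 0 and 4 below it in their log2 difference, the median was 0.12, and 0 passed the adjusted threshold of limma-trend. ALDH1A2, a retinoic acid synthesis gene whose T-ALL transcript depends on TAL1, had 441.08, 436.80 and 424.85 CPM in SCML4 cells and 453.81, 286.91 and 263.21 CPM in EV cells. EV replicate 1 was above all SCML4 libraries, and the other 2 EV libraries were far below them. The log2 difference was 0.42, interval -0.06 to 0.89, with all 6 libraries (limma-trend, adjusted p = 0.905). Unweighted limma-voom on all 6 libraries gave 0.42 (adjusted p = 0.858), and limma-trend after the GC correction gave 0.40 (adjusted p = 0.808). With library weights, of which EV replicate 1 had the lowest, 0.313, limma-voom gave 0.59 (adjusted p = 0.00381). Without EV replicate 1, a fit chosen after seeing the data, limma-voom gave 0.66, interval 0.53 to 0.79 (adjusted p = 1.22e-05). These last 2 fits give little or no weight to EV replicate 1. ALDH1A2 was 1 of 13 genes past the threshold in the fit without that library, 0.092% of those tested. In limma-trend without EV replicate 1 the difference was 0.66 and the adjusted p 0.255, so the call was made only in those 2 fits of reads. The exact two-sided permutation test over all 6 libraries gave p = 0.4.

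MIR223HG is the host gene of miR-223, a microRNA whose transcript TAL1 activates. The mature arms are shown because the host is read here and the microRNA itself is not, with the seed (bases 2 to 8) in capitals, from RefSeq on GRCh38.p14, plus strand, at chrX:66018895-66018916 and chrX:66018937-66018958.
hsa-miR-223-5p: cGUGUAUUugacaagcugaguu
hsa-miR-223-3p: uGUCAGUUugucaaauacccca
The host gene had 97, 138 and 103 reads in SCML4 libraries, against 83, 58 and 40 in EV libraries, or 10.7, 13.4 and 11.5 CPM in SCML4 cells and 8.62, 6.47 and 4.13 CPM in EV cells. Every SCML4 library exceeded every EV library, as in 6.02% of all genes tested, and EV replicate 1 was the nearest. MIR223HG was the 1 gene of the 16 listed with this order. The log2 difference was 0.94, interval 0.32 to 1.55 (limma-trend, unadjusted p = 0.00932, adjusted p = 0.905). An unadjusted p under 0.05 was reached by 5.09% of all genes in limma-trend. Unweighted limma-voom on all 6 libraries gave 0.95 (adjusted p = 0.858). With library weights, lowest for EV replicate 1, limma-voom gave 1.13 (adjusted p = 0.0300), where 0.0989% of genes passed. Without EV replicate 1, limma-voom gave 1.20 (adjusted p = 0.0707). GC content was not available for MIR223HG, so its difference was not corrected for it.

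The other TAL1-activated genes gave differences in both directions. CDK6, a cell cycle kinase gene, had 4492, 4423 and 4243 CPM in SCML4 cells and 5780, 4504 and 4580 CPM in EV cells, the 1 gene of the 16 with all SCML4 libraries below all EV libraries, as in 5.27% of all genes tested. KIT, a growth factor receptor gene, had 10.2, 8.90 and 10.1 CPM in SCML4 cells and 22.9, 6.69 and 6.92 CPM in EV cells. EV replicate 1 stood far above every other library, and the SCML4 libraries lay between it and the other 2 EV libraries. ARID5B, itself a member of the extended circuit, had 137, 137 and 168 CPM in SCML4 cells and 143, 123 and 124 CPM in EV cells. TRIB2, a pseudokinase gene, had 93.8, 99.3 and 82.1 CPM in SCML4 cells and 93.8, 110.5 and 113.8 CPM in EV cells. Neither ARID5B nor TRIB2 separated the groups, and both, like KIT, were picked after their values were seen. TSPAN7, a tetraspanin gene, had 336, 333 and 308 CPM in SCML4 cells and 321, 298 and 281 CPM in EV cells. Of the 7 GIMAP genes, a family of small GTPases of lymphocytes, GIMAP1 had 30.7 ± 6.31 CPM in SCML4 cells and 24.3 ± 1.74 CPM in EV cells, and SCML4 replicate 1 lay within the EV range. With EV replicate 1 left out, 6 of the 16 genes had all SCML4 libraries above and 2 below both EV libraries, where 11.6% and 10.0% of all genes did.

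**Figure D5:**
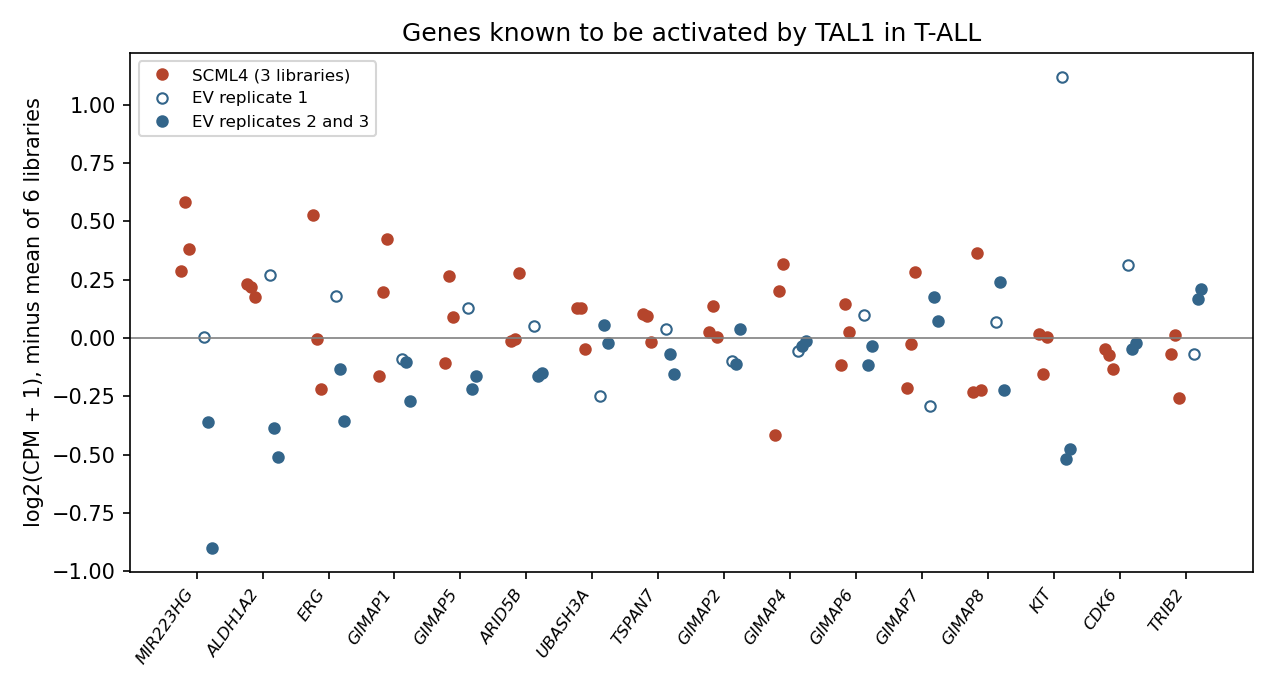
Log2(CPM + 1) of 16 genes known to be activated by TAL1, each minus its mean over 6 libraries, with SCML4 libraries left of EV libraries and EV replicate 1 as an open circle. In ALDH1A2 and KIT the SCML4 libraries lie below EV replicate 1 and above EV replicates 2 and 3; MIR223HG has all SCML4 libraries on top.

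Genes that E proteins drive in thymocytes, which TAL1 holds down by taking up E proteins, overlapped between the groups wherever tested. Of 5 listed, 4 were tested (PTCRA, with 61 to 108 reads, fell under the FPKM filter), 1 with a positive and 3 with negative differences and a median of -0.28, and 0 passed the adjusted threshold of limma. RAG1, the recombinase gene, had 107.01, 62.59 and 70.36 CPM in SCML4 cells and 193.01, 73.15 and 64.77 CPM in EV cells. EV replicate 1 set the EV mean, and without it the log2 difference was 0.17 by limma-voom, against -0.31 with all 6 libraries by limma-trend. RAG2 had 34.0 ± 9.09 CPM in SCML4 cells and 40.4 ± 7.94 CPM in EV cells (SD, n = 3 each). CDKN1A, a cell cycle inhibitor gene, had 1.20 ± 0.124 CPM in SCML4 cells and 1.78 ± 0.572 CPM in EV cells.

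Genes listed for other T-ALL subgroups, and erythroid genes of the same complex, were mostly at or near 0. Of the 12 genes listed for other subgroups, 5 had no reads and 9 averaged under 1 CPM, among them TLX1, TLX3, HOXA9, HOXA10 and MEF2C. The exceptions were HOXA13, ZEB1 and BCL11B, and reads of a listed gene do not by themselves mark a subgroup. HOXA13 had 1.64 ± 0.657 CPM in SCML4 cells and 1.56 ± 0.753 CPM in EV cells, and ZEB1, a zinc finger repressor gene, 170 ± 8.58 CPM in SCML4 cells and 169 ± 21.2 CPM in EV cells. BCL11B, a T cell commitment factor gene, had 371 ± 11.3 CPM in SCML4 cells and 411 ± 11.9 CPM in EV cells (SD, n = 3 each). Its SCML4 libraries were lower without overlap, as in 5.27% of all genes tested. Its log2 difference was -0.15 (limma, unadjusted p = 0.0308, adjusted p = 0.905), and it was -0.15 without EV replicate 1 as well. An unadjusted p under 0.05 was reached by 5.09% of all genes in limma. Of 11 erythroid genes that TAL1, LMO2, LDB1 and GATA1 activate in red cell precursors, 10 averaged under 1 CPM and only the receptor gene EPOR was tested, at 13.5 ± 1.23 CPM in SCML4 cells and 12.9 ± 0.697 CPM in EV cells. The 10 T cell markers had, in sum, 3184 to 3264 CPM in SCML4 libraries, against 2871 to 3149 CPM in EV libraries. For such sums too, no share over other gene sets was computed. Among these 10, 8 had positive differences and 0 passed the adjusted threshold of limma. In 5, CD3D, CD3E and CD5 among them, every SCML4 library was above every EV library, as in 6.02% of all genes tested. Their part in the differences of the circuit was not tested.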

How the data were processed

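Per the labels' protocols, TRIzol was used for extraction and a SMARTer kit for the mRNA libraries. The submitters' processing notes name FastQC, STAR, SAMtools and hg19. In the sources used here, the counting tool, annotation and strand setting are not given. The authors deposited FPKM for each library in a column of its own, per the file headers. Groups and replicate numbers came from the sample titles.

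Reads were recovered from the FPKM steps for 23897 genes above 0, of which 100% came out whole within 0.002 of a read, widened for large values. A common divisor of a gene's reads cannot be seen from whole reads alone. Library totals and such divisors were therefore set by assuming that the implied gene lengths are whole numbers of bases. CPM are these reads scaled to a library total of 1000000. Differences, SCML4 minus EV, were tested by limma-trend (limma 3.58.1, R 4.3.3) on log2(FPKM + 1) for genes averaging 0.5 FPKM or more, at a Benjamini-Hochberg adjusted p of 0.05. The pseudocount of 1 and the filter act on FPKM, whose implied lengths are not the genes' own: they shrink or leave out genes of low FPKM, which need not be genes of few reads. Recovered reads with a mean of at least 10 were fitted by limma-voom, with and without library weights, and, chosen after seeing the data, without EV replicate 1. The GC correction used a lowess curve of span 0.3 over GC content and length. GENCODE 29 on GRCh38 gave lengths and GC content. Scripts were tested on simulated data.

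Members and gene lists were chosen with earlier results of these data known. Named genes are the members, SCML4, up to 3 tested genes of smallest unadjusted p in each other list and, as levels, up to 3 of highest CPM in 4 lists. A gene of the TAL1-activated list is not reported here, and that list's counts are over the other 16. Confidence intervals of differences cover the spread between libraries, and the floor of 3 reads covers counting error only. Counts of replicates differed by a chi-square of 2.60 to 11.1 per gene, so no library was a duplicate.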

Additional observations from a re-analysis of the deposited data

How the results depend on the processing

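In all 20 alternatives to the test of the 9 members, planned or added, 0 members passed the adjusted threshold. Over all genes the count was 0 in the test of all 6 libraries, 7 with no filter, 4 with no trend, 1 with library weights, 1 by limma-voom, 14 by limma-voom with library weights, 1 on log2(CPM + 1), 3 after correction for GC content and length, and 13 by limma-voom without EV replicate 1, the last chosen after seeing the data. Of the values of single genes under the alternatives, 492 kept their direction and their side of the threshold, 3 newly passed it (ALDH1A2 under 2 alternatives and MIR223HG under 1) and 20 turned direction. LDB1 was -0.0894 with library weights, -0.0858 by limma-voom with library weights, -0.0813 after the GC correction and -0.091 by limma-voom without EV replicate 1. HDAC2 was 0.0173 after the GC correction, and without EV replicate 1 limma-voom gave -0.0646 for ID1, -0.0396 for ID3 and 0.17 for RAG1. The causes were not tested. Leaving out 1 library at a time gave log2 differences of -0.0898 to 0.0747 for LDB1, -0.0078 to 0.17 for GATA3, -0.0084 to 0.15 for RUNX1, -0.0028 to 0.23 for MYB, -0.30 to 0.42 for HOXA13, -0.0715 to 0.30 for ID1, -0.0378 to 0.47 for ID3 and -0.60 to 0.17 for RAG1. Whether the replicate numbers pair libraries is not known. Deviations of same-numbered libraries had correlations of -0.0187, -0.0469 and -0.00999, against -0.0422 to 0.0675 for other pairs. Values this near 0 over all genes cannot decide it. With the replicate block 0 members and 0 of all genes passed. With 3 libraries a group, 20 to 60 reads for LYL1 and LMO1 and 1 read for LMO2, depth limits what can be said of these genes.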
